A study of Rattus norvegicus with 6 samples.

Results

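The genes described here encode the machinery of oxidative phosphorylation, and they were taken from the table by their symbols: every row that begins with Nduf, Uqcr, Atp5 or Mt-, with Cox followed by a digit from 4 to 8, or that is 1 of the Sdh genes a to d. The rule found 101 of 18286 rows. Of these, 88 lie on nuclear chromosomes and 13 on the mitochondrial chromosome. RNA of the rat basophilic leukemia line RBL-2H3, which serves as a mast cell model, was sequenced in 3 control libraries and in 3 libraries from cells given dihydrocoumarin (DHC), a lactone related to coumarin. All 6 samples carry the same protocol, IgE against dinitrophenyl at 50 ng/ml for 12 h and the antigen DNP-HSA at 100 ng/ml for 4 h. The treatment label of the control samples is none, and the labels do not say whether the control cells received IgE and antigen. They also leave out how much DHC was given, for how long, and whether replicates were grown as separate cultures. The p-values therefore reflect the spread of these 6 libraries, and that spread may be technical. The series addresses IgE-dependent activation of mast cells, and the comparison here is DHC against control as labelled.

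Oxidative phosphorylation couples electron transport in the inner mitochondrial membrane to the synthesis of ATP. Complex I takes electrons from NADH and complex II from succinate, complex III passes them to cytochrome c, complex IV hands them to oxygen, and complex V, the ATP synthase, uses the resulting proton gradient. Complexes I, III, IV and V combine subunits made from nuclear mRNAs with subunits made from mitochondrial mRNAs inside the organelle, while complex II is built from nuclear genes only. Some nuclear subunits are core parts shared with bacterial enzymes, others are supernumerary subunits added around them, and assembly factors help to build a complex without staying in it.

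With DHC, most transcripts of the 5 complexes had slightly higher means, and the increases that passed the test were between 1.10-fold and 1.39-fold. Levels are given as RPKM, reads per kilobase of exon scaled to the library's total reads, and were tested with limma on log2(RPKM + 1) in the 10667 genes whose mean over the libraries reached 1 RPKM. A gene was counted as higher or lower at an adjusted p below 0.05 (Benjamini-Hochberg over all genes tested). The libraries numbered 1 of both groups stood apart from the others in the balance of mitochondrial mRNAs, and counts without both of them are given with that result. The libraries held between 29084976 and 34170922 reads assigned to genes. Of the 93 members tested, 80 were nuclear-encoded and 13 mitochondrially encoded. Among the nuclear-encoded members 23 (28.75%) rose, 3 (3.75%) fell and 54 did not pass, where 18.4% of all genes tested were higher and 16.1% lower. No nuclear-encoded subunit of complexes I to IV fell, and the count of lower ones was 0 also at an unadjusted p under 0.05 and with limma-voom on reads. Ndufa2, a supernumerary subunit of complex I, was the exception under other settings: it had a negative log2 fold change and passed as lower in 2 of 19 alternatives. Of the 80, 75 had a positive log2 fold change. Their median was 0.17, against 0.05 over all genes tested, of which 58.2% were positive. Among the mitochondrially encoded members 5 of 13 rose, none fell in this limma test, all 13 fold changes were positive and the median was 0.22. In bulk RNA a change in the amount of RNA per cell and a change in the make-up of the cells cannot be told apart.

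In 35 of the 80 nuclear-encoded members (43.75%) all 3 DHC values lay above all 3 control values, as they did in 28.1% of all genes tested. In 4 of them all DHC values lay below, against 21.6% of all genes. Among the mitochondrially encoded members 6 of 13 were separated upwards. The number of calls among nuclear-encoded members, and its distance from the share over all genes, was sensitive to single libraries and to scaling. It was 8 (10.0%, against 11.2% of all genes tested) without DHC replicate 2 and 15 (18.75% against 13.5%) without control replicate 3. With scaling by trimmed means it was 10 (12.5% against 12.0%), with median-of-ratios factors 11 (13.75% against 12.8%) and after each library's trend on gene length was removed 12 (15% against 14.95%). In these 3 fits and without DHC replicate 2, the members' share was near the share over all genes or below it. With no filter on low values it was 14 (15.9% against 9.15%). The 5 calls among mitochondrially encoded members became 10 with limma-voom on reads, where 21.6% of all genes were higher. They became 3 with no filter and 3 with the length trend removed. With trimmed means or median-of-ratios factors the split over all genes was 1285 higher and 2114 lower (trimmed means) or 1365 higher and 2048 lower (median of ratios), in place of 1968 and 1717. The median of the nuclear-encoded members was 0.10 and that of the mitochondrially encoded members 0.16 under trimmed means.

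**Figure D1:**
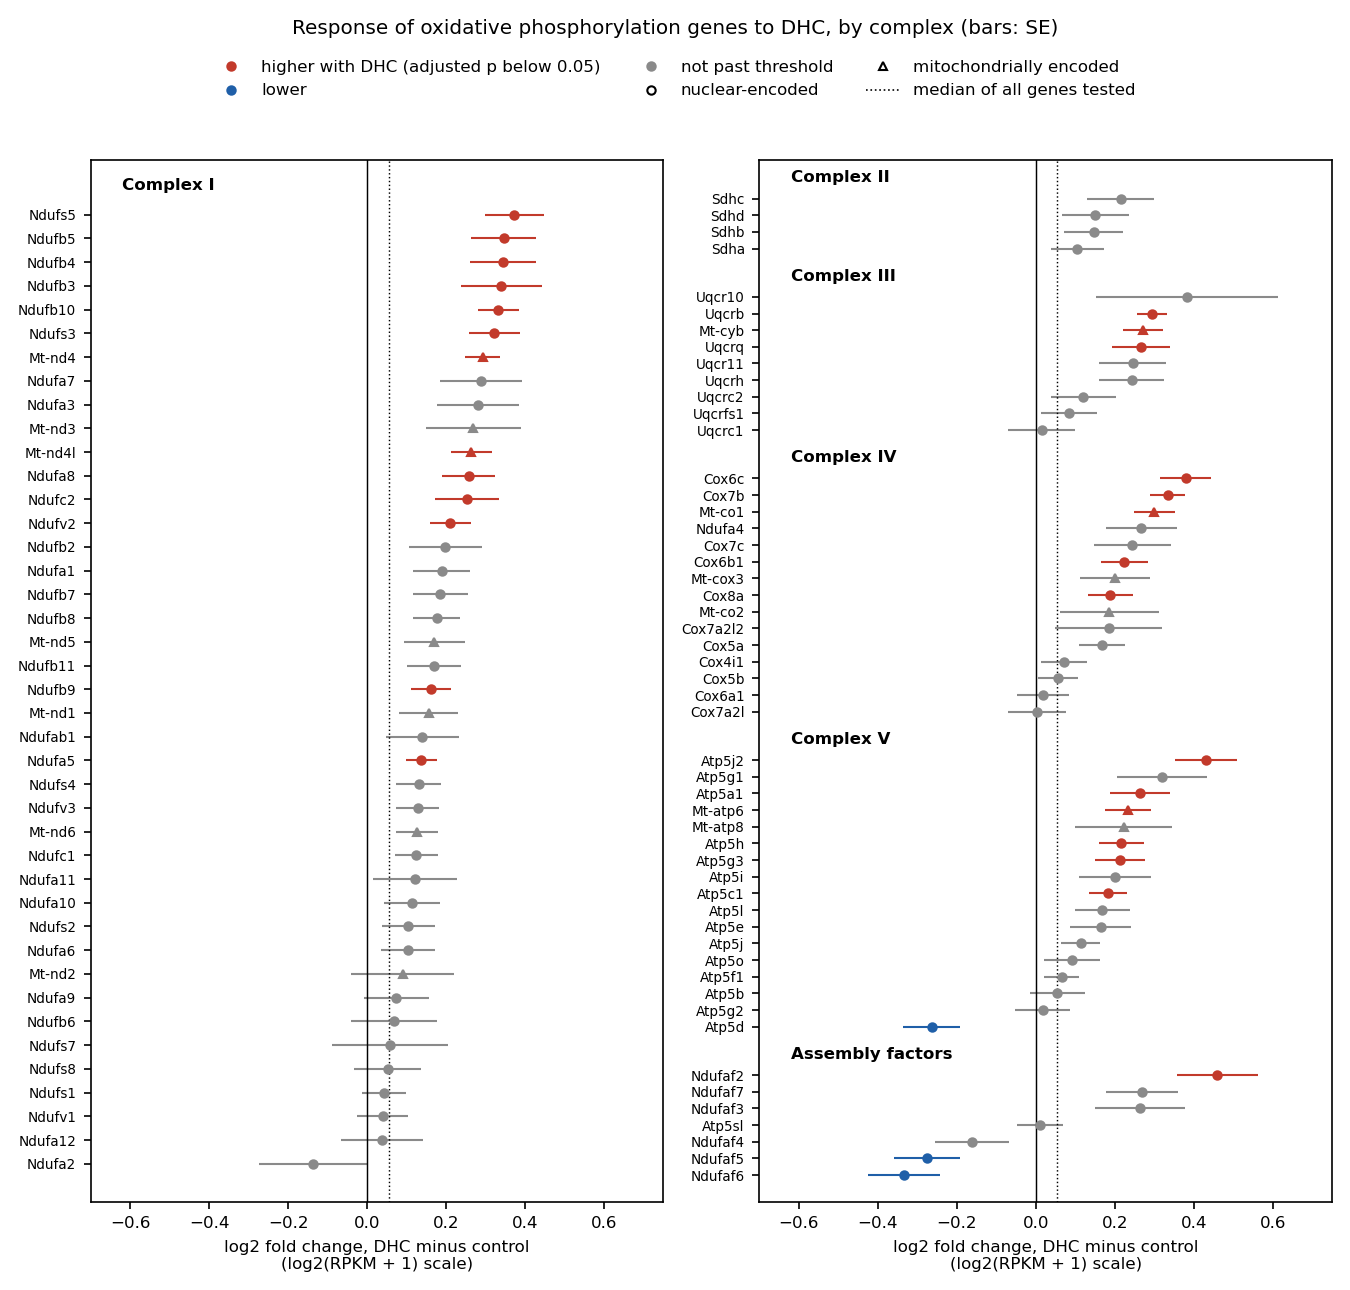
Log2 fold change (DHC minus control, on the log2(RPKM + 1) scale) of each tested member, sorted by complex, with bars for the SE of the limma fit; circles are nuclear-encoded and triangles mitochondrially encoded genes, and the dotted line is the median of all genes tested (0.05). The points of all 5 complexes lie mostly to the right of 0, and the 3 lower members are Atp5d, Ndufaf5 and Ndufaf6.

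Complex I is the largest of the set, with 35 nuclear-encoded rows, of which 34 were tested. Of those, 11 rose (32.4%, against 18.4% of all genes tested) and none fell (median 0.15). The share was 9 of 27 among supernumerary subunits (median 0.17) and 2 of 7 among core subunits (median 0.06). Ndufb10, a supernumerary subunit of the membrane arm (chromosome 10, 14090128 to 14092289 on Rnor_6.0), was at 41.1, 43.3 and 40.6 RPKM in control and 54.3, 50.2 and 53.7 RPKM in DHC libraries. The lowest DHC library lay above the highest control library, and the change was 1.26-fold (log2 fold change 0.33 ± 0.05, SE, limma adjusted p = 0.00260). Ndufs3, a core subunit of the arm that faces the matrix (chromosome 3, 79721694 to 79728879), was at 17.3, 16.6 and 16.7 RPKM in control and 22.0, 22.4 and 19.7 RPKM in DHC libraries. Its groups were separated as well, and it rose 1.27-fold (log2 fold change 0.32 ± 0.06, SE, limma adjusted p = 0.00743). Ndufb5, another membrane-arm subunit (chromosome 2, 119139717 to 119153753), rose from 10.1 ± 1.06 to 13.1 ± 0.617 RPKM (SD, n = 3 per group; log2 fold change 0.35 ± 0.08, SE, limma adjusted p = 0.0160), a call lost (adjusted p = 0.0544, 0.0562 and 0.0546) when control replicate 2, or replicate 2 or 3 of DHC, was left out. Exons of Ndufb5 and Ndufs3 overlap genes on the opposite strand over 14.9% and 4.98% of their bases, and reads of the partners cannot be told apart because it is not given whether counting used strand.

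The row named Ndufs5, a supernumerary subunit of the membrane arm, also rose, from 185 ± 14.8 to 239 ± 17.4 RPKM (SD, n = 3 per group; log2 fold change 0.37 ± 0.07, SE, limma adjusted p = 0.00745). This row holds a single exon of 321 bases on chromosome 2 of Rnor_6.0, and RefSeq places the gene on another chromosome of the assembly GRCr8, so the value is that of the row and is uncertain for the gene. Ndufb9 was the most abundant nuclear-encoded complex I member, at 361, 401 and 382 RPKM in control and 431, 435 and 413 RPKM in DHC libraries. It rose 1.12-fold (log2 fold change 0.16 ± 0.05, SE, limma adjusted p = 0.0398), and it passed in 9 of 19 alternatives. The other members of complex I that passed were Ndufb3, Ndufb4, Ndufv2, Ndufa5, Ndufa8 and Ndufc2, with increases of 1.10-fold to 1.28-fold. Ndufv2 is a core iron-sulfur subunit near the site of NADH oxidation, and these 6 lie outside the rule for named genes and are listed to complete the count. The single member of the complex with a negative fold change was Ndufa2 (named after its values were seen), at 17.6 ± 3.55 RPKM in control and 15.7 ± 0.880 RPKM in DHC libraries, with overlapping groups (limma adjusted p = 0.462).

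Complex II, succinate dehydrogenase, also works in the citric acid cycle. None of its 4 members passed the test with limma, where 1 (Sdhc) had an unadjusted p under 0.05 and 1 passed with limma-voom. Their median was 0.15. Sdha, the flavoprotein that oxidizes succinate, was the most abundant at 156, 179.6 and 174 RPKM in control and 171, 185 and 191 RPKM in DHC libraries. Its groups overlapped (limma adjusted p = 0.257). Sdhb, the iron-sulfur subunit, was at 32.7 ± 1.85 RPKM in control and 36.4 ± 3.14 RPKM in DHC libraries (SD, n = 3 per group; limma adjusted p = 0.165). The membrane anchors Sdhc and Sdhd stood at 34.3 ± 4.04 RPKM in control and 39.9 ± 1.85 RPKM in DHC libraries and at 17.4 ± 1.68 RPKM in control and 19.5 ± 1.39 RPKM in DHC libraries. Their limma adjusted p values were 0.0855 and 0.207. All 4 means were higher with DHC, by 1.08-fold to 1.16-fold, and in none were the groups separated. Among the alternatives, Sdhc passed without control replicate 2 (0.0218) and with limma-voom on reads (0.0456), and did not with a replicate block (0.0503). Sdha and Sdhb passed only with the replicate block (0.0472 and 0.0438).

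In complex III, 2 of 8 nuclear-encoded members (25%, against 18.4% of all genes tested) rose and none fell (median 0.24). Uqcrb, a small subunit close to a ubiquinone site, had the lowest p of all members. It was at 200.2, 202 and 195 RPKM in control and 245, 243 and 245 RPKM in DHC libraries. The 3 DHC libraries lay within 2 RPKM of each other and all above control, an increase of 1.23-fold (log2 fold change 0.29 ± 0.04, SE, limma adjusted p = 0.000966). The exons of this row lie on chromosomes 1 and 7, so the value may hold reads of a second locus. Uqcrq, another supernumerary subunit (chromosome 10, 38779132 to 38782419), rose from 119 ± 7.55 to 143 ± 12.1 RPKM (SD, n = 3 per group; log2 fold change 0.27 ± 0.07, SE, limma adjusted p = 0.0273) and passed in 12 of 19 alternatives. Uqcrh, the hinge protein between the complex and cytochrome c, and Uqcr11 were separated upwards but did not pass. Uqcrh was at 392, 411 and 341 RPKM in control and 483, 454 and 415 RPKM in DHC libraries (limma adjusted p = 0.0543), and Uqcr11 at 84.1 ± 7.56 RPKM in control and 100.0 ± 9.42 RPKM in DHC libraries (limma adjusted p = 0.0582).

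In complex IV, cytochrome c oxidase, 4 of 12 tested nuclear-encoded members (33.3%, against 18.4% of all genes tested) rose and none fell (median 0.19). Cox7b (chromosome X, 77065397 to 77071676) was at 351, 372 and 351 RPKM in control and 457, 434 and 463 RPKM in DHC libraries. All DHC values lay above control, and the change was 1.26-fold (log2 fold change 0.33 ± 0.04, SE, limma adjusted p = 0.00128). Over 14.2% of its exon bases the row overlaps a gene on the opposite strand. Cox6c (chromosome 7, 74723179 to 74735650) was at 221, 215 and 203 RPKM in control and 298, 280.4 and 255 RPKM in DHC libraries. It rose 1.30-fold (log2 fold change 0.38 ± 0.06, SE, limma adjusted p = 0.00361), the largest change among the members of this complex that passed. Cox6b1, which faces the intermembrane space, rose from 83.4 ± 6.04 to 97.4 ± 2.91 RPKM, and Cox8a, a small membrane subunit, from 30.2 ± 0.921 to 34.6 ± 1.94 RPKM (SD, n = 3 per group; limma adjusted p = 0.0241 and 0.0381). Cox6b1 passed in 13 of 19 alternatives and Cox8a in 8 of 19, and the exons of Cox6b1 lie on chromosomes 1 and 2.

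Several subunits of complex IV exist as isoforms from separate genes. In these cells Cox4i1 was far above Cox4i2, and Ndufa4 far above Ndufa4l2. Cox4i1, the widely expressed isoform of subunit 4 and the most abundant nuclear-encoded member of all, was at 842, 908 and 936 RPKM in control and 886, 957 and 978 RPKM in DHC libraries. Its groups overlapped (limma adjusted p = 0.367). Cox4i2, its oxygen-responsive counterpart, had 0 reads in 5 libraries and 4 reads in DHC replicate 3. The muscle isoform Cox7a1 had 1 read in each of 2 libraries and 0 in the others. Cox7a2l, a related protein linked to supercomplexes of complexes III and IV, was at 19.0 ± 0.397 RPKM in control and 19.1 ± 1.79 RPKM in DHC libraries (limma adjusted p = 0.976), and the general isoform Cox6a1 at 182 ± 11.3 RPKM in control and 184 ± 12.2 RPKM in DHC libraries (limma adjusted p = 0.853). For Cox7a2l and Cox6a1 the sign of the small difference turned negative under trimmed means and under median-of-ratios scaling. Ndufa4, now counted as a complex IV subunit, was at 53.5 ± 4.71 RPKM in control and 64.6 ± 6.57 RPKM in DHC libraries (limma adjusted p = 0.0517), while its hypoxia-linked relative Ndufa4l2 had at most 4 reads in a library. With counts this low no fold is given for Cox4i2, Cox7a1 or Ndufa4l2.

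**Figure D2:**
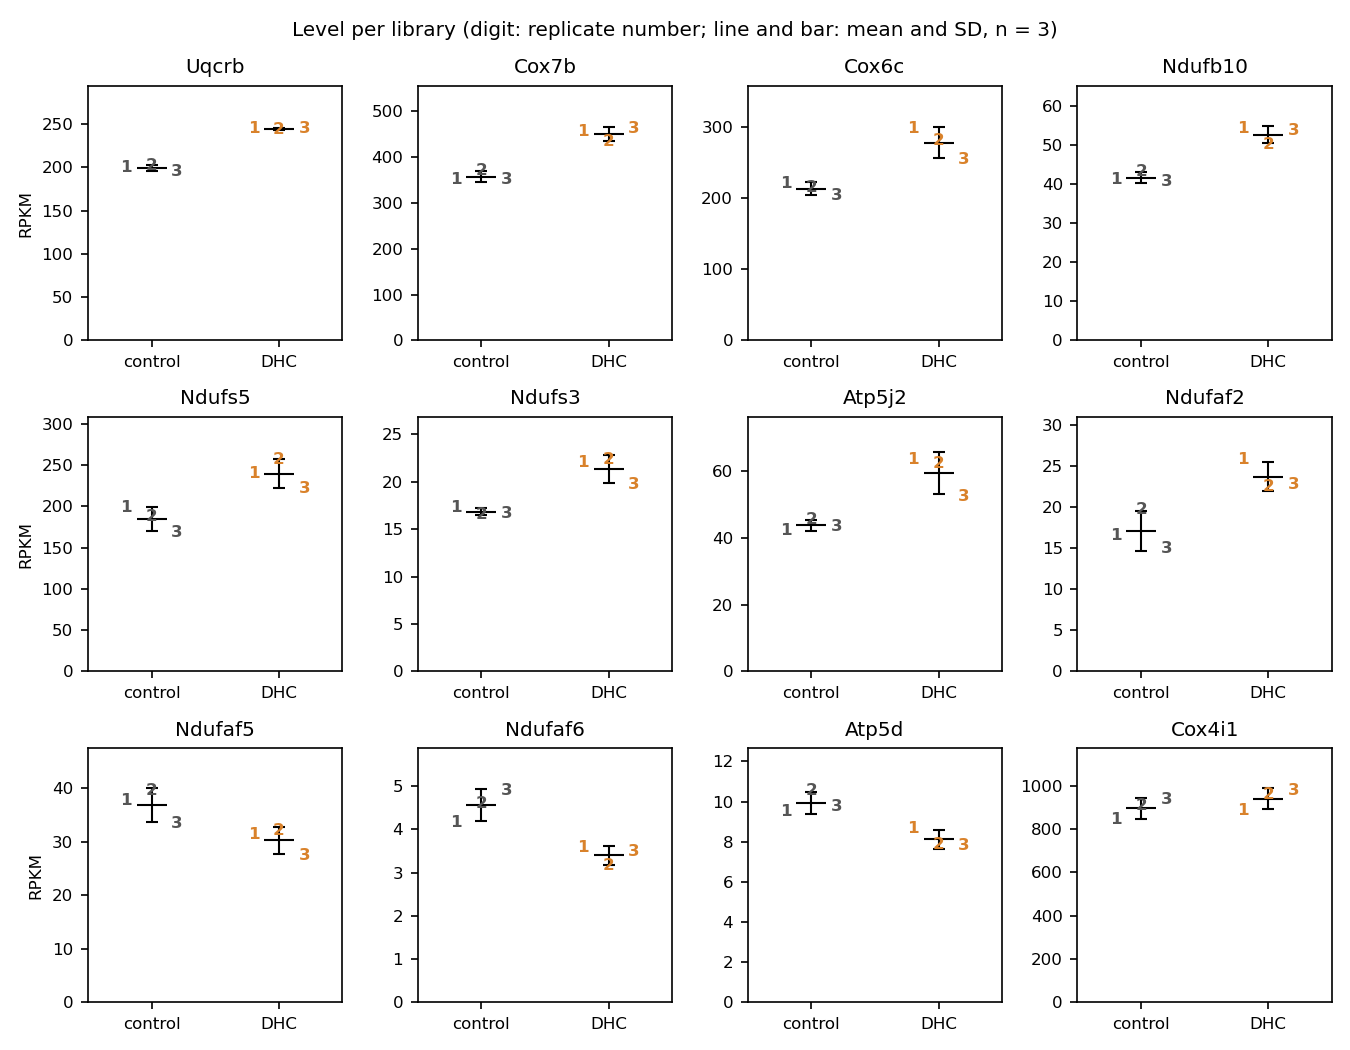
RPKM in each library for 12 members, with the digit giving the replicate number and the line and bar the mean and SD of 3 libraries; the vertical axes start at 0. Uqcrb, Cox7b, Cox6c, Ndufb10, Ndufs5, Ndufs3, Atp5j2 and Ndufaf2 are separated upwards, Ndufaf5, Ndufaf6 and Atp5d downwards, and Cox4i1 overlaps.

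In complex V, 5 of 15 nuclear-encoded members rose and 1 fell (33.3% and 6.67%, against 18.4% and 16.1% of all genes tested). Their median was 0.17. Atp5j2, subunit f of the membrane part (chromosome 12, 11191812 to 11198369), was at 42.2, 45.4 and 43.3 RPKM in control and 63.4, 62.3 and 52.2 RPKM in DHC libraries. All DHC libraries lay above control, with DHC replicate 3 the lowest of them, and the change was 1.36-fold (log2 fold change 0.43 ± 0.08, SE, limma adjusted p = 0.00498). Atp5c1, the gamma subunit that turns inside the catalytic head, rose from 39.7 ± 1.46 to 45.2 ± 0.519 RPKM, and Atp5h, subunit d of the peripheral stalk, from 313 ± 6.96 to 365 ± 25.7 RPKM (SD, n = 3 per group; limma adjusted p = 0.0211 and 0.0227). Atp5c1 passed in 14 of 19 alternatives and Atp5h in 10 of 19. The alpha subunit gene Atp5a1, outside the rule for named genes, rose as well, 1.20-fold. Atp5b, the catalytic beta subunit and the most abundant nuclear-encoded member of the complex, was at 688, 773 and 803 RPKM in control and 728, 802 and 819 RPKM in DHC libraries. The groups overlapped (limma adjusted p = 0.581), and the sign turned negative with trimmed means and with median of ratios.

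Atp5d, the delta subunit of the central stalk (chromosome 7, 12426809 to 12432130), was the single subunit of any complex that fell. It was at 9.52, 10.6 and 9.77 RPKM in control and 8.67, 7.88 and 7.81 RPKM in DHC libraries. All DHC libraries lay below control, a 1.23-fold lower mean (log2 fold change −0.26 ± 0.07, SE, limma adjusted p = 0.0273). It passed in 15 of 19 alternatives. Leaving out replicate 2 or 3 of control (0.0934 and 0.0594) or replicate 2 or 3 of DHC (0.0897 and 0.0836) ended the call. Atp5g1, Atp5g2 and Atp5g3 encode the same mature c subunit, which forms the rotor ring in the membrane. Atp5g3 rose from 32.1 ± 1.57 to 37.4 ± 2.23 RPKM (SD, n = 3 per group; limma adjusted p = 0.0341), and passed in 9 of 19 alternatives. Atp5g1 was at 25.1, 34.6 and 26.8 RPKM in control and 34.2, 35.1 and 38.5 RPKM in DHC libraries. Control replicate 2 lay inside the range of the DHC values (limma adjusted p = 0.0625), and without that library the gene passed (0.00669). Atp5g2 was at 22.4 ± 1.47 RPKM in control and 22.7 ± 1.39 RPKM in DHC libraries (limma adjusted p = 0.866), with a negative sign under both of the scalings named above.

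The assembly factors that the symbol rule caught moved in both directions. Of 7 tested, 1 rose and 2 fell (14.3% and 28.6%, against 18.4% and 16.1% of all genes tested), and the median was 0.01. With so few genes, these shares are not a trait of the group. Ndufaf2, a factor of late complex I assembly (chromosome 2, 39321741 to 39434560), was at 16.6, 19.7 and 14.9 RPKM in control and 25.8, 22.6 and 22.8 RPKM in DHC libraries. It had the largest increase of all members, 1.39-fold (log2 fold change 0.46 ± 0.10, SE, limma adjusted p = 0.0120), and did not pass when both libraries numbered 1 were left out (0.0752). Ndufaf6, an early complex I factor (chromosome 5, 24297094 to 24320786), was at 4.17, 4.60 and 4.90 RPKM in control and 3.58, 3.16 and 3.48 RPKM in DHC libraries. Its groups did not overlap and the mean was 1.34-fold lower (log2 fold change −0.33 ± 0.09, SE, limma adjusted p = 0.0263). Ndufaf5, which modifies a core subunit of complex I (chromosome 3, 133232432 to 133261973), was at 37.7, 39.6 and 33.4 RPKM in control and 31.3, 32.1 and 27.5 RPKM in DHC libraries. Its mean was 1.22-fold lower (log2 fold change −0.27 ± 0.08, SE, limma adjusted p = 0.0381). Ndufaf6 passed in 12 of 18 alternatives and Ndufaf5 in 12 of 19. Both decreases lost the call when replicate 2 of control was left out (limma adjusted p = 0.0768 for Ndufaf6 and 0.119 for Ndufaf5). The same held for DHC replicate 2 (0.0893 and 0.0558) and DHC replicate 3 (0.0591 and 0.108). Ndufaf6 also failed without control replicate 3 (0.0836), and Ndufaf5 without the library numbered 1 of either group (0.0913 control, 0.0555 DHC). Ndufaf7, a methyltransferase for a complex I subunit, was at 4.03 ± 0.0804 RPKM in control and 5.07 ± 0.542 RPKM in DHC libraries, separated upwards and not past the threshold (limma adjusted p = 0.0536).

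The 13 members on the mitochondrial chromosome are parts of long transcripts of both strands. Members that share bases, such as Mt-nd4l with Mt-nd4 and Mt-atp8 with Mt-atp6, are counted separately here and are not independent. The products of the 13 are core subunits of complexes I, III and IV and 2 membrane subunits of complex V. In this set Mt-nd4, Mt-co1, Mt-cyb, Mt-nd4l and Mt-atp6 rose, so that each of those 4 complexes had at least 1 higher member. Mt-nd4, a proton-pumping subunit of complex I (chromosome MT, 10160 to 11537), was at 849.8, 843 and 906 RPKM in control and 1085, 1045 and 1052 RPKM in DHC libraries. The groups were apart by more than the range within either of them, and the change was 1.22-fold (log2 fold change 0.29 ± 0.04, SE, limma adjusted p = 0.00221). Mt-nd4l, which shares 7 bases with Mt-nd4, was at 1769.9, 1796 and 1906 RPKM in control and 2313, 2139.8 and 2119.7 RPKM in DHC libraries (log2 fold change 0.26 ± 0.05, SE, limma adjusted p = 0.00725), and the call was lost (0.0781) once the length trend was taken out. Mt-cyb, cytochrome b of complex III, was at 1927, 1797 and 1929 RPKM in control and 2371, 2235 and 2217 RPKM in DHC libraries. It rose 1.21-fold (log2 fold change 0.27 ± 0.05, SE, limma adjusted p = 0.00506).

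Mt-co1, the catalytic subunit of complex IV, was at 4397, 4444 and 4649 RPKM in control and 5241, 5608 and 5775 RPKM in DHC libraries. It rose 1.23-fold (log2 fold change 0.30 ± 0.05, SE, limma adjusted p = 0.00434) and failed only with no filter on low values (0.0598) among the alternatives. The other core subunits of that complex did not pass. Mt-co2, which receives electrons from cytochrome c, was at 2703, 2069.7 and 2028 RPKM in control and 2919.9, 2466 and 2322 RPKM in DHC libraries (limma adjusted p = 0.286), and Mt-cox3 at 2491, 2154 and 2041 RPKM in control and 2798, 2491 and 2381 RPKM in DHC libraries (limma adjusted p = 0.117). In both, the control library numbered 1 stood inside the DHC range. Mt-atp6, the proton channel subunit of complex V, was at 10602, 9884 and 9885 RPKM in control and 12613, 11491 and 11619 RPKM in DHC libraries (log2 fold change 0.23 ± 0.06, SE, limma adjusted p = 0.0186), and passed in 13 of 19 alternatives. Mt-atp8, which shares 43 bases with Mt-atp6, was the highest member of all per length, at 17638, 14414 and 13778 RPKM in control and 20736, 16511 and 16239 RPKM in DHC libraries. Its groups overlapped (limma adjusted p = 0.199).

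Of the other complex I subunits, Mt-nd1, at 6154 ± 590.0 RPKM in control and 6841 ± 271 RPKM in DHC libraries, and Mt-nd2, at 2068 ± 304 RPKM in control and 2202 ± 336 RPKM in DHC libraries, did not pass (SD, n = 3 per group; limma adjusted p = 0.142 and 0.628). Nor did Mt-nd3, at 187 ± 26.5 RPKM in control and 225 ± 27.3 RPKM in DHC libraries, and Mt-nd5, at 603 ± 63.6 RPKM in control and 677 ± 34.0 RPKM in DHC libraries (limma adjusted p = 0.121 and 0.127). The sign for Mt-nd2 turned negative without DHC replicate 1 (log2 fold change −0.031). Mt-nd6, the single mRNA encoded on the other strand, was at 836, 804 and 916 RPKM in control and 934, 919 and 933 RPKM in DHC libraries. Its groups were separated upwards, by little, and it did not pass (limma adjusted p = 0.106).

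The libraries numbered 1 of both groups had a different balance of mitochondrial mRNAs from the other 4. In both groups Mt-nd2, Mt-co2, Mt-atp8, Mt-atp6, Mt-cox3 and Mt-cyb were higher in library 1 than the mean of libraries 2 and 3, by 1.03 to 1.32 times in control and 1.07 to 1.28 times in DHC. Mt-nd1, Mt-co1, Mt-nd3 and Mt-nd5 were lower in both, and the other 3 genes differed in sign between the groups. When both libraries numbered 1 were left out, 9 of the 13 rose in place of 5, and 23 nuclear-encoded members rose and 3 fell. These were in part other members. Of the 28 members higher with all libraries, 21 were also higher in this fit. The 23 were 28.75% of nuclear-encoded members, where 16.5% of all genes were higher.

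**Figure D3:**
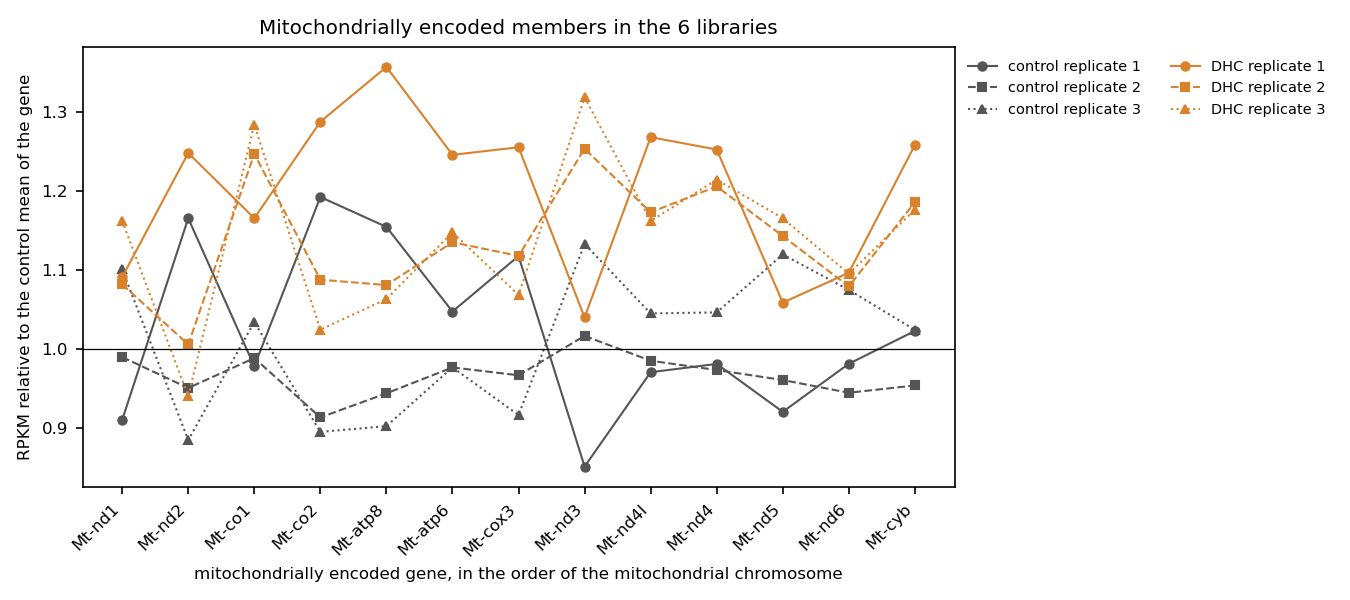
RPKM of each mitochondrially encoded gene divided by its control mean, in the order of the mitochondrial chromosome, with 1 line for each library. The DHC lines run mostly above 1, and the 2 lines of the libraries numbered 1 share peaks at Mt-nd2, Mt-co2 and Mt-atp8 and a dip at Mt-nd3.

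Summed over members, mitochondrially encoded mRNAs took 3.47%, 3.28% and 3.39% of the reads of the control samples and 4.08%, 3.85% and 3.89% of those of the DHC samples. The groups did not overlap. Nuclear-encoded members together took 0.732%, 0.783% and 0.777% in control and 0.818%, 0.865% and 0.850% in DHC libraries, again without overlap. The remaining genes of the mitochondrial chromosome, listed by identifiers, took 0.0610% ± 0.00142 in control and 0.0595% ± 0.00211 in DHC libraries (SD, n = 3 per group), with overlapping groups. As sums of RPKM, nuclear-encoded complex I members went from 1991 ± 55.4 to 2267 ± 64.3, complex II from 254 ± 13.9 to 278 ± 13.0, complex III from 1006 ± 47.3 to 1170 ± 28.1, complex IV from 2516 ± 53.5 to 2796 ± 35.3 and complex V from 2128 ± 104 to 2352 ± 107. These correspond to 1.09-fold to 1.16-fold, and all 5 sums were separated between the groups. For complex II the gap was narrow, with the highest control library at 264.5 and the lowest DHC library at 264.9. For complex V these values were 2196 and 2229. The sum of the assembly factors was 80.4 ± 5.70 in control and 80.3 ± 4.77 in DHC libraries, which overlapped. Mitochondrially encoded sums were 1.13-fold (complex I), 1.21-fold (III), 1.19-fold (IV) and 1.17-fold (V) those of control, the last with overlapping groups. Sums are dominated by the most abundant members and are given without a test. They come from RPKM as deposited and were not repeated under other scalings. With trimmed means the median log2 fold change of nuclear-encoded members was 0.10 in place of 0.17.

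**Figure D4:**
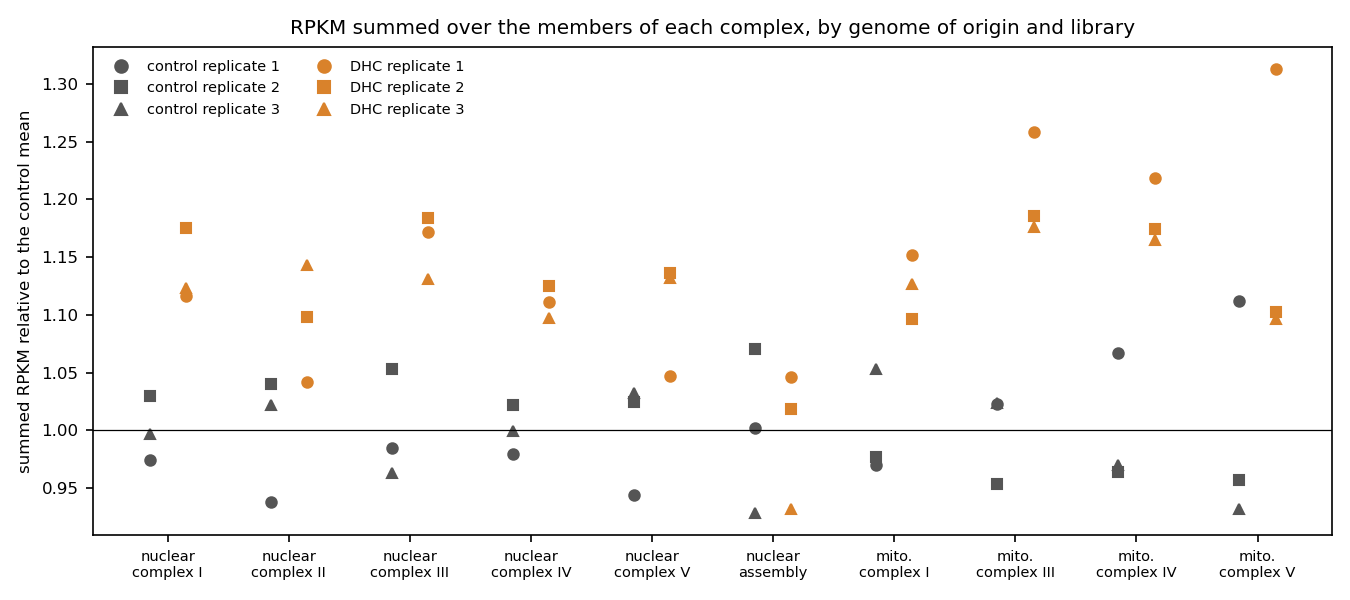
RPKM summed over the members of each complex, divided by the control mean, with 1 symbol for each library. DHC symbols lie above all control symbols for each nuclear complex, for complex II only by a narrow gap (264.5 and 264.9 RPKM). They also do so for mitochondrial complexes I, III and IV, and overlap with control for the assembly factors and for mitochondrial complex V.

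Many subunits of these complexes are short proteins, and the rows of nuclear-encoded members had a median exon length of 836 bases against 2081 over all genes tested. Short genes as a whole were shifted slightly more. Among genes of up to 1000 bases the median log2 fold change was 0.10 over all 2056 and 0.19 over the 47 members, and 16.3% of all and 15 of the 47 members (31.9%) were higher. Over 1000 bases the medians were 0.04 for all 8611 genes and 0.12 for 33 members, and 19.0% of all and 8 members (24.2%) were higher.

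Promoters of nuclear respiratory genes are known for sites of the factors NRF1 (not the antioxidant factor of similar name), YY1 and the ETS family, to which GABP belongs. RefSeq promoter windows of GRCr8, from 250 bases before to 50 bases after the start, were found for 73 of the 85 nuclear-encoded members whose row lies on the same chromosome as the RefSeq gene. They were searched on both strands for GCGCANGCG (NRF1), AAGATGGCG (YY1) and CCGGAAG (ETS), each separately, so that a window may hold more than 1 of them. At least 1 motif was present in 39 of 73 windows (53.4%), against 15.5% of 27457 RefSeq windows. The latter are not limited to the 10667 genes tested and include genes not expressed here. The share among genes tested was not computed, so the difference is not particular to respiratory genes on these values. NRF1 was found in 24.7% against 6.26%, YY1 in 12.3% against 1.93% and ETS in 26.0% against 9.22%. By response, it was 9 of 17 windows (52.9%) in members that rose and 28 of 49 (57.1%) in members that did not pass. Shown here are the 150 bases before the start of the 4 higher members with the lowest p that hold a match in this stretch, and of Ndufaf5, the lower member that does, with the matches in capitals. They are examples of what 5 of 17 higher and 1 of 2 lower members with a window contain, on GRCr8, each written in the direction of transcription. The positions are chr11:76569028-76569177 (plus strand), chr10:38089979-38090128 (minus), chr4:53971236-53971385 (minus), chr18:73567387-73567536 (plus) and chr3:147961462-147961611 (plus), in the order of the lines.
Ndufb4, NRF1: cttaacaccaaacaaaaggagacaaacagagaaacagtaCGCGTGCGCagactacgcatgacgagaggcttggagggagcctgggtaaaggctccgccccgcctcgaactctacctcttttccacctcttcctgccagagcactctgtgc
Uqcrq, ETS: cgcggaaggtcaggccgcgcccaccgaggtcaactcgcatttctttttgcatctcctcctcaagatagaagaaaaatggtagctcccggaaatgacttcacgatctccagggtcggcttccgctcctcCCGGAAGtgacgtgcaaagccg
Ndufa5, NRF1: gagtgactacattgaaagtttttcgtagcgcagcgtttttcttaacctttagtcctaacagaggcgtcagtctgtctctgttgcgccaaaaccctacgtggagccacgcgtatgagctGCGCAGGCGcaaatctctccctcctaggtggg
Atp5a1, ETS: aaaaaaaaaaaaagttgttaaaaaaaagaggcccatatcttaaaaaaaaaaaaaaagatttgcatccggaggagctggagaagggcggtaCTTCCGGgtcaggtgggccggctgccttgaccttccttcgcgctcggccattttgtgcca
Ndufaf5, NRF1: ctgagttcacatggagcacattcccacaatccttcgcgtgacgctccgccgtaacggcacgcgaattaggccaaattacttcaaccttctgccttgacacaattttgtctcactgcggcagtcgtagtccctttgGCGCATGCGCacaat
The matches begin 111 (Ndufb4), 22 (Uqcrq), 32 (Ndufa5), 60 (Atp5a1) and 15 (Ndufaf5) bases before the start. A match is a string of letters and no measurement of binding. Of these 5 genes the first 4 rose, by 1.10-fold to 1.28-fold, and Ndufaf5 fell.

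The genes of the factors themselves were listed with other regulators, and of 7 tested 1 rose and 3 fell (14.3% and 42.9%, against 18.4% and 16.1% of all genes tested). Yy1 was at 81.4, 81.8 and 83.7 RPKM in control and 63.4, 65.0 and 63.1 RPKM in DHC libraries. All DHC values were below control (log2 fold change −0.36 ± 0.04, SE, limma adjusted p = 0.000540). Esrra, an orphan nuclear receptor of energy metabolism, fell from 9.28 ± 0.357 to 6.71 ± 0.413 RPKM, and Tfe3, a factor of lysosomal and metabolic genes, from 16.7 ± 0.508 to 14.1 ± 0.702 RPKM (SD, n = 3 per group; limma adjusted p = 0.00404 and 0.0247). The single higher gene, named after its values were seen, was Gabpb1, a subunit of GABP, with 5.13 ± 0.121 RPKM in control and 6.24 ± 0.420 RPKM in DHC libraries (limma adjusted p = 0.0458). Its partner Gabpa, at 21.5 ± 1.95 RPKM in control and 24.2 ± 1.97 RPKM in DHC libraries, and Nrf1, at 22.8 ± 0.356 RPKM in control and 21.7 ± 0.949 RPKM in DHC libraries, did not pass (limma adjusted p = 0.173 and 0.358) and are likewise named after their values were seen.

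Genes that maintain and express mitochondrial DNA rose in 8 of 22 tested cases and fell in 1 (36.4% and 4.55%, against 18.4% and 16.1% of all genes tested). Their median was 0.20, against 0.05. Counts for this and the other pathway lists come from the fit on RPKM as deposited. They were not repeated under the alternatives of scaling or length trend, to which the members' own counts were sensitive. Ssbp1, which coats single-stranded mitochondrial DNA, was at 44.1, 44.0 and 44.8 RPKM in control and 55.7, 67.9 and 57.5 RPKM in DHC libraries. It rose 1.36-fold (log2 fold change 0.43 ± 0.08, SE, limma adjusted p = 0.00411). Fastkd3, a protein of mitochondrial RNA metabolism, rose from 7.23 ± 0.541 to 10.1 ± 0.504 RPKM (SD, n = 3 per group; limma adjusted p = 0.00479). Tbrg4, of the same protein family, fell from 18.0 ± 0.857 to 14.7 ± 0.175 RPKM (limma adjusted p = 0.00930). Named after their values were seen, the polymerase Polrmt rose from 7.29 ± 0.487 to 9.33 ± 0.268 RPKM and the packaging and transcription factor Tfam from 37.2 ± 2.12 to 43.2 ± 2.82 RPKM (limma adjusted p = 0.0125 and 0.0420).

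Assembly factors beyond the symbol rule were listed separately. Of 7 tested factors of complex I, 3 rose (42.9%, against 18.4% of all genes tested; median 0.23, against 0.05). Ecsit rose from 6.58 ± 0.401 to 9.40 ± 1.03 RPKM, Tmem126b from 1.62 ± 0.0800 to 2.65 ± 0.485 RPKM and Acad9 from 12.6 ± 0.657 to 15.2 ± 1.44 RPKM (SD, n = 3 per group; limma adjusted p = 0.00754, 0.0219 and 0.0477). Of 28 tested factors of complexes II to V, 7 rose and 1 fell (25% and 3.57%, against 18.4% and 16.1% of all genes tested; median 0.18). Cox17, a copper chaperone of complex IV, was at 458, 501 and 495 RPKM in control and 557, 591 and 583 RPKM in DHC libraries. The groups did not overlap (log2 fold change 0.25 ± 0.05, SE, limma adjusted p = 0.00669). Uqcc1, of complex III assembly, rose 1.29-fold and Cox18, which helps to insert a complex IV subunit, 1.49-fold (limma adjusted p = 0.00980 and 0.0107). The single lower gene, named after its values were seen, was Coa3, from 4.70 ± 1.67 to 2.55 ± 0.306 RPKM (limma adjusted p = 0.0395). Among 11 remaining subunits and electron carriers 2 rose (18.2%, near the 18.4% of all genes tested), Etfdh from 21.1 ± 2.81 to 26.4 ± 0.692 RPKM and Coq9, of ubiquinone synthesis, from 10.00 ± 1.67 to 13.3 ± 1.03 RPKM (limma adjusted p = 0.0352 and 0.0382). Cycs, cytochrome c, named after its values were seen, was at 163 ± 8.08 RPKM in control and 165 ± 3.47 RPKM in DHC libraries (limma adjusted p = 0.771).

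The libraries carried the markers of the labelled line and few of other cells. The 8 mast cell and basophil markers were all above 1 RPKM. Their sum was 1020 to 1050 RPKM in control and 705 to 731 RPKM in DHC libraries. Of them 1 was higher and 4 were lower (12.5% and 50%, against 18.4% and 16.1% of all genes tested). Most of the drop in the sum came from Gata2, with a mean of 345 RPKM in control and 69.9 RPKM in DHC libraries. Kit, Il1rl1 and Hdc were also lower, Ms4a2 was higher (321 and 369 RPKM), and Fcer1a, Fcer1g and Cpa3 did not pass. Of the T cell markers Cd3e rose, from 34.6 ± 2.85 to 41.8 ± 1.69 RPKM (limma adjusted p = 0.0209), while Cd3d and Cd3g stayed under 1 RPKM in every library. Summed B cell, macrophage and erythroid markers were below 1 RPKM in every library. Of the fibroblast markers Col3a1 was at 23.6 ± 0.934 RPKM in control and 21.9 ± 1.44 RPKM in DHC libraries. Whether these marker differences bear on the members was not tested.

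The calls differed in how they held across 19 alternatives of scaling, filter, pseudocount, test and left-out libraries. Of the 28 members that rose, 9 passed in every one of them: Uqcrb, Ndufb10, Atp5j2, Ndufs5, Ndufs3, Cox6c, Cox7b, Mt-nd4 and Mt-cyb. None of the 3 lower members did.

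**Figure D5:**
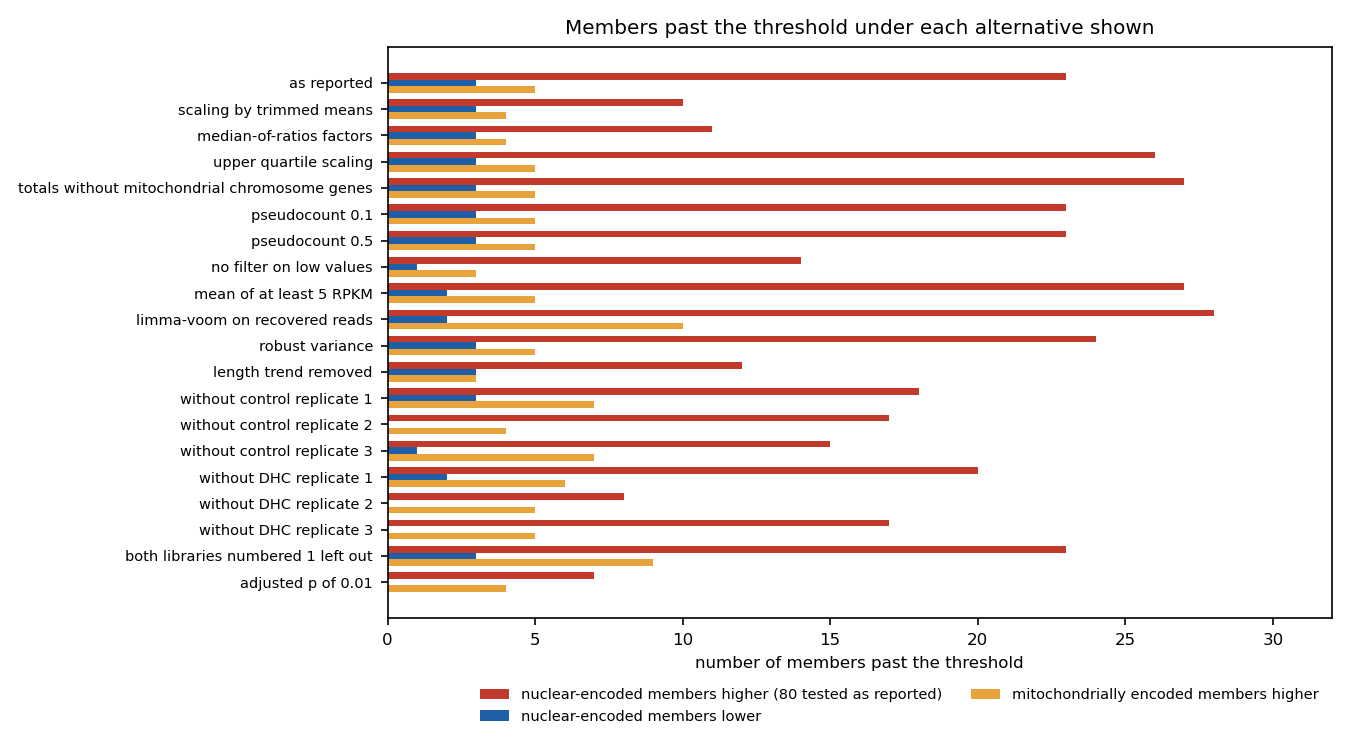
Number of members past the threshold as reported, under alternatives of scaling, filter, pseudocount, test and left-out libraries, and at an adjusted p of 0.01; bars count nuclear-encoded members higher, nuclear-encoded members lower and mitochondrially encoded members higher. The fit with a replicate block is not plotted. Among the settings plotted at an adjusted p of 0.05, higher nuclear-encoded members number between 8 without DHC replicate 2 and 28 with limma-voom on recovered reads, and they number 7 at the stricter threshold. These are 10%, 35% and 8.75% of those tested, where 11.2%, 21.6% and 8.18% of all genes were higher.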

How the data were processed

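Per the labels' protocols, total RNA was taken from the cells with Trizol and made into Illumina libraries. The submitters' processing notes name the build Rnor_6.0 and the tools Trimmomatic 0.36, Subread 1.5.1 with featureCounts, and edgeR 3.12.1. For the aligner, the annotation release and the strand setting nothing is given in the sources used here. The deposited table gives exon coordinates, exon length and 1 value per gene and library. The deposited values are RPKM, which was found from the values: in each library, value times length came in whole steps (100% of values, tolerance 0.01 read), and the reads recovered in this way sum to the library total that the step implies. RPKM carries no scaling beyond that total, so that a change in abundant transcripts shifts all others, and depends on the exon length of a row.

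From the deposited RPKM, limma 3.58.1 (R 4.3.3, trended variance) was fitted on log2(RPKM + 1) to the 10667 genes whose mean over the 6 libraries reached 1 RPKM, with group as the only term, two-sided, with Benjamini-Hochberg adjustment over all genes tested and a threshold of 0.05. This scale understates the changes of weakly expressed genes. A value such as N-fold is the ratio of the group means in RPKM. Trimmed means and median of ratios were computed on the recovered reads. Reads of these genes (10652 past the filter) were simulated with the same fixed dispersion for every gene. Of them, 77 were changed 1.2-fold, 57 were changed 1.5-fold and 66 were changed 2-fold. The recovery was 5.2%, 82.5% and 97.0% in this order, with 11 false among 126 calls. The data gave 1968 higher and 1717 lower genes, so the adjusted threshold was stricter in the simulation. These recoveries are therefore not the share of real changes found here. No library repeated another, since within each group the libraries differed beyond counting noise (chi-square per degree of freedom 4.43 to 15.0).

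Named with values were all mitochondrially encoded members, in each complex and among assembly factors up to 4 nuclear-encoded members with the lowest p and the most abundant one, every lower member, isoform pairs and Sdh genes, and up to 3 genes with the lowest p of each pathway list. The members and lists were chosen with earlier results of these data known. No list was tested as a set. RefSeq tables of GRCr8 held all 88 nuclear-encoded symbols and supplied the promoter sequences. The alternatives tried (scaling, pseudocount, filter, test, replicate block, length trend, libraries left out) are given in the closing section.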

Additional observations from a re-analysis of the deposited data

How the results depend on the processing

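Over all genes, 1285 were higher with scaling by trimmed means, 873 higher and 1076 lower at an adjusted p of 0.01, and 1195 to 1755 higher when 1 library was left out, against 1968 higher and 1717 lower. Genes lower over the whole table numbered 1277 to 1610 without 1 library. Nuclear-encoded members higher numbered 23 as reported (28.75%, against 18.4% of all genes). They numbered 10 with trimmed means (12.5% against 12.0%), 11 with median of ratios (13.75% against 12.8%) and 14 with no filter on low values (15.9% against 9.15%). With the length trend removed there were 12 (15% against 14.95%), and at an adjusted p of 0.01 there were 7 (8.75% against 8.18%). Without 1 library there were 8 to 20 (10% to 25%, against 11.2% to 16.4%). Nuclear-encoded members lower numbered 1 with no filter, 0 at an adjusted p of 0.01 and 0 to 3 without 1 library, against 3. Mitochondrially encoded members higher numbered 3 with no filter, 10 with limma-voom, 3 with the length trend removed, 9 without both libraries numbered 1 and 4 to 7 without 1 library, against 5. Leaving out a library leaves 2 in a group, and more rows enter the test when the filter is dropped. For the other changes the cause was not tested.

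Signs that turned belonged to differences near 0, none past the threshold. With trimmed means all genes had a median of −0.0045, Atp5b −0.012, Cox6a1 −0.048, Cox7a2l −0.060 and Atp5g2 −0.046, and with median of ratios −0.0020, −0.038, −0.050 and −0.037 for these 4 genes. With the length trend removed Cox4i1 was −0.011, Cox6a1 −0.073, Cox7a2l −0.050 and Atp5g2 −0.068. Without both libraries numbered 1, Cox6a1 was −0.035 and Cox7a2l −0.058. Without 1 library the ranges were −0.031 to 0.20 for Mt-nd2, −0.010 to 0.11 for Atp5b, −0.017 to 0.073 for Cox6a1, −0.067 to 0.056 for Cox7a2l and −0.033 to 0.058 for Atp5g2. Of all comparisons of a named gene with an alternative, 709 kept direction and side of the threshold, 87 lost the call, 52 gained one and 24 turned sign.

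The samples share replicate numbers, and nothing in the labels says that these mark a shared culture or day. With a replicate block 36 nuclear-encoded members (45%, against 22.7% of all genes) were higher and 3 lower. In that fit 13 mitochondrially encoded members were higher, and 2426 genes were higher and 1907 lower. Sdha (adjusted p = 0.0472) and Sdhb (0.0438) passed there. Deviations from the group means correlated at 0.228, −0.0495 and 0.0828 between same-numbered libraries, and not every library correlated best with its own number. At these depths rows with a few reads, such as Cox4i2, Cox7a1 and Ndufa4l2, allow no fold.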

Other observations

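Some rows of the table differ in place or structure from the RefSeq gene of the same symbol, which limits what can be said of their subunits. Of the 88 nuclear-encoded rows, 4 have a single exon, 2 have exons on 2 chromosomes and 3 lie on another chromosome than the RefSeq gene of that symbol. Ndufa13, a complex I subunit, is such a row with a single exon of 429 bases on chromosome 7, and it held 2, 2 and 4 reads in the control and 4, 6 and 2 reads in the DHC libraries. Levels that low, named here after they were seen, were found in no other complex I row. The Atp5c1 row spans chromosome 17, 72209373 to 72394271, with 7359 exon bases, the most of any member. The Ndufa1 row, named after it was seen, spans a longer stretch, chromosome X, 123803103 to 124516705, with 2817 exon bases. Below the filter were 8 nuclear-encoded members, among them the pseudogene Ndufv3-ps1 (2 to 10 reads) and Cox7b2 (0 to 4 reads), an isoform known from testis.

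Cox4i1, Atp5b and Cox5b (the last named after its values were seen) were the most abundant, at a mean of 918, 769 and 551 RPKM over all libraries, and none passed the test.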
